A study of Drosophila melanogaster with 2 samples.

Results

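The comparison set nuclei of Drosophila melanogaster embryos in which Abd-B gave most of the Hox transcripts against nuclei in which Antp and Ubx did. Nuclei with at least 3 UMIs (unique molecular identifiers, each standing for 1 captured RNA molecule) summed over Antp, Ubx, abd-A and Abd-B were eligible. Abd-B-dominant nuclei had more than 50% of that sum in Abd-B, and Antp/Ubx-dominant nuclei had more than 50% of it in Antp plus Ubx. The members were thus chosen by their measured UMIs of these 4 genes. The rule gave 22 Abd-B-dominant nuclei (Abd-B nuclei in short) and 88 Antp/Ubx-dominant nuclei (Antp/Ubx nuclei), together 110 of the 318 nuclei measured. Another 33 nuclei had enough Hox UMIs but met neither rule, and 175 had fewer than 3. The study, scAIR, read RNA, accessible chromatin and chromatin contacts from crosslinked, restriction-digested and ligated embryo nuclei barcoded on the 10x Genomics platform. Both groups came from 1 RNA library, from embryos collected between 0 and 24 h, with no strain, genotype or treatment named in the labels. The labels give no number of embryos and no replicate, and the matching DNA library was not analysed here.

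Hox genes encode homeodomain transcription factors that give segments their identity along the head-to-tail axis. In the fly, Antp acts mainly in the thorax, Ubx in the posterior thorax and anterior abdomen, abd-A in the abdomen and Abd-B in the most posterior abdominal segments. Their domains overlap and differ between epidermis, nervous system and mesoderm, and more posterior Hox proteins repress more anterior Hox genes in many tissues. Ubx-dominant nuclei are therefore not all thoracic, and the groups are called here by the genes that chose them.

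The 4 Hox genes chose the nuclei and are given as a description only. Abd-B-dominant nuclei held 211 UMIs of Abd-B, 22 of abd-A, 29 of Ubx and 25 of Antp, so that Abd-B made up 73.5% of their Hox UMIs. Antp/Ubx-dominant nuclei held 122 UMIs of Abd-B, 240 of abd-A, 549 of Ubx and 481 of Antp. Most nuclei thus had UMIs of more than 1 Hox gene. An Antp or Ubx UMI was found in 14 of the 22 Abd-B-dominant nuclei, and an Abd-B UMI in 47 of the 88 Antp/Ubx-dominant nuclei. The lowest Abd-B share that was kept was 53.8% and the lowest Antp plus Ubx share was 53.3%. At exactly 50%, 3 nuclei were left out on each side, and the next nuclei outside were at 46.7% for Abd-B and 46.2% for Antp plus Ubx. The Hox sum was small, with a median of 7.5 UMIs per Abd-B-dominant and 9 per Antp/Ubx-dominant nucleus, so single molecules decided membership in many nuclei.

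**Figure D1:**
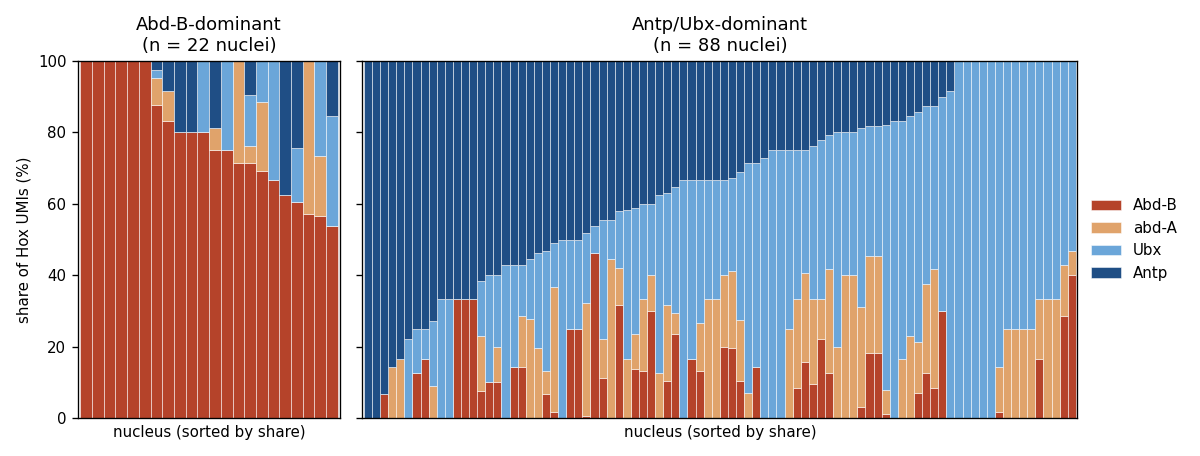
Share of each nucleus's Hox UMIs (vertical axis, percent) taken by Abd-B, abd-A, Ubx and Antp, 1 bar per nucleus, with the 22 Abd-B-dominant nuclei on the left and the 88 Antp/Ubx-dominant nuclei on the right. In 6 Abd-B-dominant nuclei Abd-B was the only Hox gene found, and in 18 Antp/Ubx-dominant nuclei all Hox UMIs were of Antp or Ubx.

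Median depth differed between the groups, though their quartiles were close, and a few nuclei weighed heavily. Abd-B nuclei had 260252 UMIs in all and a median of 5756.5 per nucleus, from 643 to 59253. Antp/Ubx nuclei had 1144892 UMIs and a median of 8201.5, from 605 to 123309. The lower and upper quartiles were 3547.5 and 15965 UMIs in Abd-B and 3603.25 and 15876 UMIs in Antp/Ubx nuclei. The deepest nucleus carried 22.8% of the UMIs of the Abd-B group, against 10.8% for that of the Antp/Ubx group. A doublet score called 8 of the 318 nuclei doublets, none of them Abd-B and 6 Antp/Ubx. The deepest Antp/Ubx nucleus was among those called. Ribosomal protein genes took 22.2% of UMIs in Abd-B and 24.2% in Antp/Ubx nuclei. Transcripts of 1 cell type were also found outside it. CG13159, the leading gene of the salivary gland-like cluster, had UMIs in 18 of 22 Abd-B nuclei (81.8%, median depth 5756.5 UMIs) and in 74 of 87 Antp/Ubx nuclei (85.1%, median depth 8160) outside the salivary gland-like cluster. The muscle myosin gene Mhc had UMIs in 13 of 21 Abd-B nuclei and in 54 of 72 Antp/Ubx nuclei outside the muscle-like cluster. A UMI in a nucleus therefore does not by itself show expression there.

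The tissue mix was compared by clustering all 318 nuclei without the 4 Hox genes and without the listed genes that are not cell type markers. Cell type markers were not left out, also where they belong to another list described here. Neuron-like nuclei were 5 of 22 Abd-B nuclei (22.7%, exact 95% binomial interval 7.82 to 45.4%) and 20 of 88 Antp/Ubx nuclei (22.7%, 14.5 to 32.9%). Somatic muscle-like nuclei were 1 of 22 Abd-B nuclei (4.55%, 0.115 to 22.8%) and 16 of 88 Antp/Ubx nuclei (18.2%, 10.8 to 27.8%). Epidermis-like nuclei were 2 of 22 Abd-B and 2 of 88 Antp/Ubx nuclei. The 1 salivary gland-like nucleus among the 110 was Antp/Ubx. The remaining nuclei lay in 5 clusters that kept only a number. Cluster 0, led by dhd and MtnA, held 6 of 22 Abd-B nuclei and 12 of 88 Antp/Ubx nuclei, and cluster 3, led by Obp28a and of high depth, held 3 of 22 Abd-B nuclei and 20 of 88 Antp/Ubx nuclei. The intervals of the 2 groups overlapped in every cluster. No interval of the difference in shares was computed, so no difference in the shares of nuclei is claimed. By UMIs, on which the sums below rest, the mixes were further apart. Cluster 0 held 28.8% of the UMIs of Abd-B and 4.25% of those of Antp/Ubx nuclei, and cluster 3 13.1% in Abd-B and 36% in Antp/Ubx nuclei. Neuron-like nuclei held 20.2% of the UMIs in Abd-B and 12.7% in Antp/Ubx nuclei. All intervals given here cover counting error only, and variation between nuclei and embryos is not in them.

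**Figure D2:**
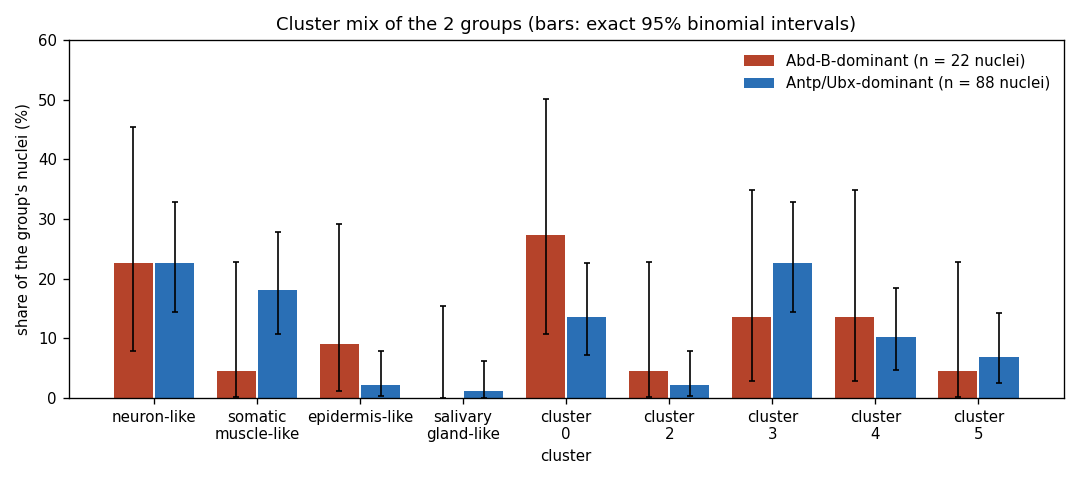
Share of each group's nuclei (vertical axis, percent) in the 9 clusters, with the 22 Abd-B-dominant nuclei in red, left of the 88 Antp/Ubx-dominant nuclei in blue, and exact 95% binomial intervals as bars. Neuron-like nuclei made up 22.7% of both groups, and somatic muscle-like nuclei 4.55% of the Abd-B-dominant and 18.2% of the Antp/Ubx-dominant group.

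Gene levels were compared as UMIs summed over a group's nuclei per 1000000 UMIs (CPM). With 1 library, nuclei are not replicates, so no test was made and genes were called by size alone. Of 7062 genes with at least 20 UMIs in both groups together, 376 (5.32%) were at least 2-fold higher and 445 (6.3%) at least 2-fold lower in Abd-B nuclei, on CPM + 10. The median log2 fold over all genes was 0.05. Many of the higher genes rested on 1 nucleus. In 240 of the 376 higher genes, 1 Abd-B nucleus gave over 50% of that group's UMIs, while in 49 of the 445 lower genes 1 Antp/Ubx nucleus did so. With the deepest nucleus of each group left out, 4.15% of genes were at least 2-fold higher and 7.4% lower. With nuclei weighed equally 6.83% were higher and 10.0% lower, and with the cluster mix matched 7.04% were higher and 5.98% lower. These settings were combined after the values were seen. With UMIs in at least 25% of the nuclei of the higher group and the gene's own top nucleus left out as well, 16 genes stayed at least 2-fold higher and 85 at least 2-fold lower. These conditions are harder to meet for a group of 22 nuclei than for one of 88, so the imbalance is no measure of direction.

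**Figure D3:**
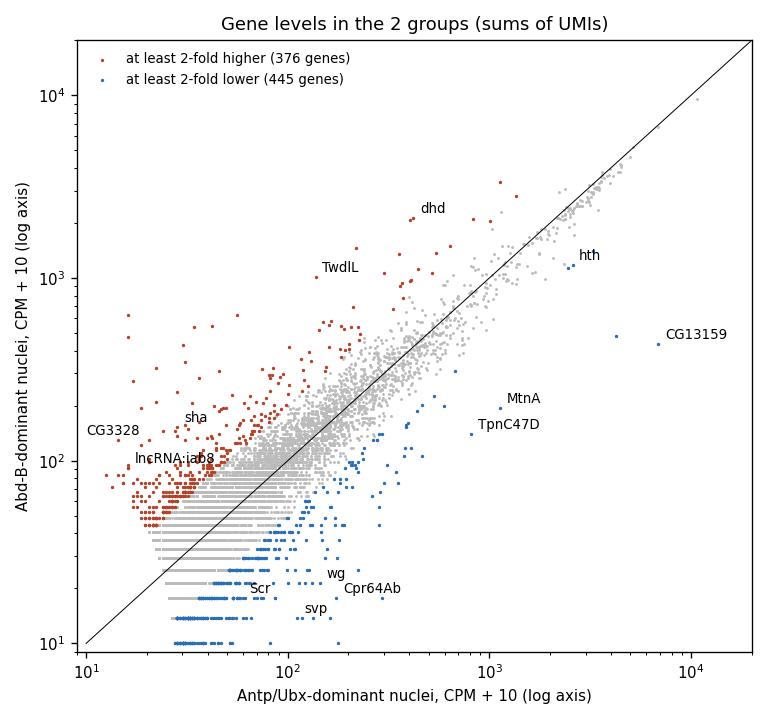
CPM + 10 of the 7062 genes in Antp/Ubx-dominant nuclei (horizontal log axis) and in Abd-B-dominant nuclei (vertical log axis), 1 point per gene, with the 376 genes at least 2-fold higher in Abd-B-dominant nuclei in red and the 445 at least 2-fold lower in blue. The noncoding RNA lncRNA:iab8 lies above the diagonal, and svp, wg, Scr and hth lie below it.

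Among other transcripts of the Hox complexes, a noncoding RNA from the Abd-B end of the bithorax complex was higher and the head and prothorax gene Scr was lower in Abd-B nuclei. The transcript lncRNA:iab8, known to be made in posterior abdominal segments, had 21 UMIs in Abd-B nuclei (80.7 CPM, exact Poisson interval 49.9 to 123) and 7 in Antp/Ubx nuclei (6.11 CPM, 2.46 to 12.6). Its CPM was 13.2-fold higher (interval of the ratio 5.40 to 36.7) and 11.4-fold higher without its top nucleus, 8.47-fold with nuclei weighed equally and 8.11-fold with the cluster mix matched. Per nucleus it ranged from 0 to 7 UMIs with a median of 0 in Abd-B nuclei, and from 0 to 1 with a median of 0 in Antp/Ubx nuclei. It was found in 7 of 22 Abd-B nuclei (31.8%, 13.9 to 54.9%) and in 7 of 88 Antp/Ubx nuclei (7.95%, 3.26 to 15.7%), so most nuclei of both groups were at 0. With each nucleus thinned to 3000 UMIs, it was found in 4 of 18 Abd-B and 3 of 69 Antp/Ubx nuclei, and the intervals of these shares overlapped (6.41 to 47.6% in Abd-B and 0.906 to 12.2% in Antp/Ubx nuclei). Thinned to 1000 UMIs, it was found in 1 Abd-B and 2 Antp/Ubx nuclei. In cluster 0 it had 7 UMIs in Abd-B nuclei, all from the deepest Abd-B nucleus, and 1 in Antp/Ubx nuclei. The neuron-like cluster had 5 in Abd-B and 2 in Antp/Ubx nuclei. In the muscle-like cluster there were 5 in its 1 Abd-B nucleus and 2 in Antp/Ubx nuclei. The iab8 gene overlaps lncRNA:iab4, MSAmiP and the microRNA genes mir-iab-4 and mir-iab-8 in the RefSeq annotation of Release 6, and no source used here says whether reads were counted by strand. Its neighbour lncRNA:iab4 had 5 UMIs in Abd-B (19.2 CPM) and 11 in Antp/Ubx nuclei (9.61 CPM), with an interval of the ratio from 0.545 to 6.24.

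Scr, which specifies the labial and first thoracic segments, had 2 UMIs in Abd-B nuclei (7.68 CPM) and 57 in Antp/Ubx nuclei (49.8 CPM), a ratio of 0.154 (0.0183 to 0.584). It was found in 2 of 22 Abd-B nuclei (9.09%, 1.12 to 29.2%) and in 24 of 88 Antp/Ubx nuclei (27.3%, 18.3 to 37.8%). The 2 Abd-B nuclei with Scr had 1 UMI each, while the highest Antp/Ubx nucleus had 12. The bithorax noncoding RNA lncRNA:bxd was at 0 UMIs in Abd-B nuclei and at 13 in Antp/Ubx nuclei, where 0 UMIs allow up to 11.5 CPM and the 13 amount to 11.4 CPM. The segmentation gene ftz had 1 UMI in Abd-B and 26 in Antp/Ubx nuclei, a ratio of 0.169 whose interval reached 1.03. Head genes of the Antennapedia complex were sparse. Dfd had 4 UMIs in Abd-B and 21 in Antp/Ubx nuclei, lab 1 in Abd-B and 15 in Antp/Ubx nuclei, and pb 0 in Abd-B and 7 in Antp/Ubx nuclei. All 3 intervals of the ratio included 1. The maternal gene bcd had 18 UMIs in Abd-B nuclei, 12 of them in 1 nucleus, and 48 in Antp/Ubx nuclei. The adhesion gene Ama, which lies within the complex, had 71 UMIs in Abd-B and 501 in Antp/Ubx nuclei, a ratio of 0.623 (0.479 to 0.801). Of the 6 genes of this list with enough UMIs, 1 was at least 2-fold higher and 2 at least 2-fold lower, beside 5.32% and 6.3% of all genes. Their median log2 fold was -0.41, beside 0.05 over all genes.

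Hox proteins bind DNA together with the homeodomain cofactors Hth and Exd, and the zinc finger protein Tsh acts with trunk Hox proteins. The most abundant of these genes, hth, was lower in Abd-B nuclei, with 304 UMIs (1168 CPM, 1040 to 1307) against 2947 in Antp/Ubx nuclei (2574 CPM, 2482 to 2669). The ratio of 0.454 (0.402 to 0.511) moved to 0.657 with the deepest nucleus of each group left out and to 0.671 with nuclei weighed equally. Of the 2947 UMIs, 826 came from the deepest Antp/Ubx nucleus, the one called a doublet. Per nucleus, hth ranged from 0 to 3815 CPM with a median of 1438 in Abd-B nuclei, and from 0 to 8024 CPM with a median of 1881 in Antp/Ubx nuclei. The ranges of the groups overlapped widely, and 21 of 22 Abd-B and 85 of 88 Antp/Ubx nuclei had a UMI. In neuron-like nuclei hth was at 723.8 CPM in 5 Abd-B nuclei and 3024 CPM in 20 Antp/Ubx nuclei, and in cluster 0 at 748 CPM in Abd-B and 2778 CPM in Antp/Ubx nuclei. The deepest Abd-B nucleus held 59253 of the 74864 UMIs of the Abd-B nuclei of cluster 0. In the neuron-like cluster 1 Abd-B nucleus held 29314 of 52500, so both values rest largely on 1 nucleus. The level of hth was also lower in clusters 3, 4, 6 and 8, about the same in cluster 5, and higher in cluster 2. Clusters 2, 5 and 8 held 1 Abd-B nucleus each.

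The other cofactor genes differed less. Tsh transcripts (gene tsh) stood at 158 CPM in Abd-B and 286 CPM in Antp/Ubx nuclei, a ratio of 0.550 (0.387 to 0.762). For exd the level was 161 CPM in Abd-B and 231 CPM in Antp/Ubx nuclei, a ratio of 0.697 that turned to a log2 fold of 0.02 with nuclei weighed equally. The related zinc finger genes tio, disco and disco-r had ratios of 0.587, 0.849 and 0.802, with intervals that included 1. All 6 genes of this list were below 1 in the sums, but only hth was at least 2-fold lower, beside 6.3% of all genes. Their median log2 fold was -0.50, and the ratio of their summed levels of 0.513 (0.464 to 0.565) moved to 0.741 without the deepest nuclei.

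The patterning genes svp and wg were sparse in Abd-B nuclei. The nuclear receptor gene svp, a relative of the vertebrate COUP-TF genes that acts in neuroblasts, heart and oenocytes, had 1 UMI in Abd-B nuclei (3.84 CPM) and 116 in Antp/Ubx nuclei (101 CPM), a ratio of 0.0379 (0.000952 to 0.216). It was found in 1 of 22 Abd-B nuclei (4.55%, 0.115 to 22.8%) and 32 of 88 Antp/Ubx nuclei (36.4%, 26.4 to 47.3%), where it ranged from 0 to 27 UMIs. With its top nucleus left out the ratio was 0.0441, with the deepest nuclei left out 0.0571, and with the cluster mix matched it was 0.0420. The Wnt ligand gene wg had 3 UMIs in Abd-B nuclei (11.5 CPM) and 154 in Antp/Ubx nuclei (135 CPM), a ratio of 0.0857 (0.0175 to 0.255). It was found in 2 of 22 Abd-B and 30 of 88 Antp/Ubx nuclei, and 75 of the 154 UMIs came from the deepest Antp/Ubx nucleus. Without that nucleus the ratio was 0.149.

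Detection of these genes depended on depth. With nuclei thinned to 3000 UMIs, svp was found in 0 of 18 Abd-B nuclei, which allows a share of up to 16.7%, and in 10 of 69 Antp/Ubx nuclei (14.5%). For wg and for Scr alike the counts were 0 of 18 Abd-B nuclei and 9 of 69 Antp/Ubx nuclei (13.0%). At equal depth the shares of nuclei with these genes could not be told apart in the 18 Abd-B nuclei. The gap gene Kr, later expressed in neuroblasts and muscle founders, had 9 UMIs in Abd-B nuclei (34.6 CPM) and 136 in Antp/Ubx nuclei (119 CPM), a ratio of 0.291 (0.130 to 0.569). It was found in 7 of 22 Abd-B nuclei and 37 of 88 Antp/Ubx nuclei, shares whose intervals overlapped.

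Lists of genes tied to Abd-B or to the thorax by their known roles were mostly near the background of all genes. Of 12 measured genes of the posterior spiracle network, in which Abd-B is known to activate ct, ems, salm and upd1, 1 was at least 2-fold higher and none lower, close to the 5.32% and 6.3% of all genes, with a median log2 fold of -0.22. That gene, RhoGEF64C, which acts in spiracle cell shape, had 115 CPM in Abd-B and 52.4 CPM in Antp/Ubx nuclei, a ratio of 2.20 (1.37 to 3.46), with 12 of its 30 UMIs in 1 Abd-B nucleus. The zinc finger gene salm had 384 CPM in Abd-B and 217 CPM in Antp/Ubx nuclei, a ratio of 1.77 (1.39 to 2.24), and 39 of its 100 UMIs in Abd-B nuclei came from 1 nucleus. The homeodomain gene ct went the other way, at 457 CPM in Abd-B and 719 CPM in Antp/Ubx nuclei, a ratio of 0.636 (0.520 to 0.772). For ems the ratio was 1.26 (0.495 to 2.83) and for upd1 0.733, from 2 UMIs in Abd-B and 12 in Antp/Ubx nuclei. The summed level of the list was 0.910 times that of Antp/Ubx nuclei (0.820 to 1.01), but 1.33 times with nuclei weighed equally. Of the other members, grn, cv-c, crb, salr, trh, en, Cad74A and Cad86C had intervals that included 1, as did Cad96Ca at a ratio of 0.391.

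None of the 11 measured genes of thoracic appendage primordia, among them Dll, sd and esg, was past 2-fold in either direction, and their median log2 fold was -0.04. The counts of this and the following lists stand beside 5.32% of all genes higher and 6.3% lower, and each list is small. The leg and wing gene Sp1 stood at 99.9 CPM in Abd-B and 177 CPM in Antp/Ubx nuclei (ratio 0.563, 0.359 to 0.850), but 104 of the 203 UMIs of Antp/Ubx nuclei came from 1 nucleus, and without it the log2 fold was 0.04. Of 6 measured terminal and posterior gut genes, the forkhead gene fkh was at least 2-fold lower (84.5 CPM in Abd-B and 197 CPM in Antp/Ubx nuclei) and none was higher. With nuclei weighed equally the ratio of fkh moved from 0.428 to 0.778. Over all 318 nuclei, fkh was at 1405 CPM in the apolpp-rich cluster 5, against 126 CPM elsewhere, and at 829 CPM in the salivary gland-like cluster. The caudal gene cad had 18 UMIs in Abd-B nuclei, 15 of them in 1 nucleus, and 54 in Antp/Ubx nuclei. Of 17 measured segment polarity genes, wg and gsb-n were at least 2-fold lower, while en had 57.6 CPM in both groups. Of 8 measured cell death genes, the activator rpr was at least 2-fold lower (23.1 CPM in Abd-B and 63.8 CPM in Antp/Ubx nuclei, ratio 0.362, 0.129 to 0.826), and hid had a ratio of 0.480 (0.282 to 0.773). Of 11 measured neuroblast temporal genes, svp and Kr were at least 2-fold lower and cas at least 2-fold higher, at 115 CPM in Abd-B and 45.4 CPM in Antp/Ubx nuclei, with 17 of its 30 UMIs in 1 Abd-B nucleus. Of 17 Polycomb and trithorax group genes and 9 insulator protein genes, none was past 2-fold. The same held for the 11 genes of BMP signalling, with a median log2 fold of -0.17, and the 4 of JAK-STAT signalling, with 0.10.

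Neuronal markers gave calls in both directions. Of 15 measured members, para, ChAT and futsch were at least 2-fold higher in Abd-B nuclei and Gad1 at least 2-fold lower, beside 5.32% and 6.3% of all genes, and the median log2 fold was 0.08. Their summed ratio of 1.27 (1.19 to 1.35) was 1.43 without the deepest nuclei and 1.03 with nuclei weighed equally. The neuronal RNA-binding protein gene elav was at 826 CPM in Abd-B and 841 CPM in Antp/Ubx nuclei, and the active zone gene brp at 134 CPM in Abd-B and 128 CPM in Antp/Ubx nuclei. Of the 10 subunit genes of the nicotinic acetylcholine receptor, counted after the values were seen, 3 were at least 2-fold lower and none higher. For nAChRalpha5 there were 9 UMIs in Abd-B (34.6 CPM) and 201 in Antp/Ubx nuclei (176 CPM), a ratio of 0.197 (0.0888 to 0.381). For nAChRalpha6 there were 22 UMIs in Abd-B (84.5 CPM) and 344 in Antp/Ubx nuclei (300.5 CPM), a ratio of 0.281 (0.174 to 0.433), and for nAChRalpha3 2 in Abd-B and 55 in Antp/Ubx nuclei. With nuclei weighed equally the ratio of nAChRalpha5 was 0.400 and that of nAChRalpha6 0.437. Thinned to 3000 UMIs, nAChRalpha6 was found in 5 of 18 Abd-B nuclei (27.8%) and 20 of 69 Antp/Ubx nuclei (29.0%). For nAChRalpha5 the counts were 1 of 18 Abd-B and 25 of 69 Antp/Ubx nuclei, and for nAChRalpha3 0 of 18 and 5 of 69. The intervals of these shares overlapped for each gene. The other 7 subunits had ratios between 0.429 for nAChRbeta2 and 1.33 for nAChRalpha4. Gad1, which makes GABA, had 1 UMI in Abd-B and 57 in Antp/Ubx nuclei, and the GABA transporter gene Gat 2 in Abd-B and 87 in Antp/Ubx nuclei. The glutamate receptor gene mGluR had 1 in Abd-B and 45 in Antp/Ubx nuclei. At clustering resolution 1.5, Gat was a leading gene of an unnamed cluster of 32 nuclei, so its UMIs need not come from neurons. In the neuron-like cluster alone, nAChRalpha6 had 1 UMI in 5 Abd-B nuclei and 153 in 20 Antp/Ubx nuclei, where 15 nuclei had it, and nAChRalpha5 had 1 in Abd-B and 77 in Antp/Ubx nuclei. Over that same cluster elav was at 1162 CPM in Abd-B and 1488 CPM in Antp/Ubx nuclei. One of the 5 Abd-B neuron-like nuclei held 29314 of their 52500 UMIs, so these values rest largely on it. The same nucleus had the most UMIs of the sensory organ marker cpo among Abd-B nuclei, 489. Neuron-like nuclei were also not uniform. At clustering resolution 1.5, nAChRalpha6, nAChRalpha3 and Gad1 were leading genes of 1 neuron-like cluster of 42 nuclei. Another of 10 nuclei had the sensory organ markers cpo, nompC, nan and eys. Whether Abd-B and Antp/Ubx nuclei differ in their mix of such neurons was not tested. The genes named from nAChRalpha5 to mGluR were picked after their values were seen, from the 85 genes that stayed at least 2-fold lower.

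Higher values of para and of the sensory organ markers rested largely on 1 nucleus each. The sodium channel gene para had 243 UMIs in Abd-B (934 CPM) and 412 in Antp/Ubx nuclei (360 CPM), but 160 of the 243 came from 1 nucleus, and without it the ratio was 0.999. The RNA-binding protein gene cpo, a sensory organ marker, had 865 UMIs in Abd-B (3324 CPM) and 1273 in Antp/Ubx nuclei (1112 CPM), with 489 of the 865 in a nucleus of 29314 UMIs, and a log2 fold of 0.55 without that nucleus. It is the neuron-like nucleus on which the Abd-B values of that cluster largely rest. The mechanoreceptor channel gene nompC had 22 UMIs in Abd-B and 20 in Antp/Ubx nuclei, with 19 of the 22 in 1 nucleus. All 3 measured sensory organ markers were at least 2-fold higher in the sums, beside 5.32% of all genes, which here describes chiefly 1 nucleus.

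Of 10 measured sarcomere genes, 4 were at least 2-fold lower in Abd-B nuclei and none higher, and of 16 somatic muscle markers 3 were lower and none higher, beside 6.3% of all genes lower. Muscle-like nuclei held 9.93% of the UMIs of Abd-B and 27.4% of those of Antp/Ubx nuclei. Troponin C gene TpnC47D had 34 UMIs in Abd-B (131 CPM) and 921 in Antp/Ubx nuclei (804 CPM), a ratio of 0.162 (0.112 to 0.229). Its median was 1 UMI per Abd-B nucleus, with a highest value of 16, and 2 per Antp/Ubx nucleus, with a highest value of 210. With the cluster mix matched the ratio was 0.279. The actin gene Act87E stood at 57.6 CPM in Abd-B and 276 CPM in Antp/Ubx nuclei, and the muscle protein gene Mp20 at 96.1 CPM in Abd-B and 365 CPM in Antp/Ubx nuclei. The Z-disc gene Zasp52 had 53.8 CPM in Abd-B and 252 CPM in Antp/Ubx nuclei, and Zasp66 had 34.6 CPM in Abd-B and 179 CPM in Antp/Ubx nuclei. For Zasp52, 133 of the 289 UMIs of Antp/Ubx nuclei came from 1 nucleus. Matching the cluster mix moved the ratio of Act87E from 0.209 to 0.397, that of Mp20 from 0.263 to 0.456, that of Zasp52 from 0.213 to 0.394 and that of Zasp66 from 0.193 to 0.307. The sum of the 10 sarcomere genes was 0.610 times as high (0.568 to 0.655), and 0.994 times with the mix matched. For the 16 muscle markers it was 0.597 times (0.572 to 0.622), and 1.04 times with the mix matched. These markers were not left out of the clustering. The muscle-like part of the matched values rests on 1 Abd-B nucleus of 25834 UMIs, so these values are a description only. Tm1, a tropomyosin gene, was at 1214 CPM in Abd-B and 1276 CPM in Antp/Ubx nuclei. The 16 measured somatic muscle markers summed to between 875 and 63250 CPM per Abd-B nucleus and between 1233 and 81670.5 CPM per Antp/Ubx nucleus, with none at 0 in either group. The part of the muscle share in the single genes was not tested beyond the matched values.

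Cuticle and epidermal genes moved in both directions. The Tweedle cuticle gene TwdlL had 262 UMIs in Abd-B (1007 CPM) and 146 in Antp/Ubx nuclei (128 CPM), but 237 of the 262 were in 1 nucleus, and the CPM ratio was 0.810 without it. The same held for CG15212 (353 of 375 UMIs in 1 nucleus, ratio 0.439 without it) and CG17290 (485 of 539, ratio 0.569 without it). The actin-organizing gene sha, which shapes epidermal hairs, had 37 UMIs in 7 of 22 Abd-B nuclei (142 CPM) and 21 UMIs in 15 of 88 Antp/Ubx nuclei (18.3 CPM), with 29 of the 37 in 1 epidermis-like nucleus and a ratio of 1.79 without it. Lower in Abd-B nuclei were the cuticle gene Cpr64Ab, at 7.68 against 164 CPM in Antp/Ubx nuclei (2 of 22 Abd-B and 27 of 88 Antp/Ubx nuclei), and Twdlbeta, at 11.5 CPM against 103 CPM in Antp/Ubx nuclei. Of 16 measured epidermis markers, 4 were at least 2-fold higher and 1 at least 2-fold lower, beside 5.32% and 6.3% of all genes, with a median log2 fold of 0.38. Their sum ranged from 726.6 to 17494 CPM per Abd-B nucleus, with a median of 2981, and from 0 to 14621 CPM per Antp/Ubx nucleus, with a median of 1870.

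Of the 12 named genes with the highest folds, 5 kept at least a 2-fold difference under the 4 ways of weighing nuclei. Beside lncRNA:iab8 one was CG3328, with 134 CPM in Abd-B and 14.0 CPM in Antp/Ubx nuclei, found in 9 of 22 Abd-B and 12 of 88 Antp/Ubx nuclei. The aquaporin gene Prip had 138 CPM in Abd-B and 21.8 CPM in Antp/Ubx nuclei, CG14692 had 88.4 CPM in Abd-B and 10.5 CPM in Antp/Ubx nuclei, and CG8180 had 188 CPM in Abd-B and 33.2 CPM in Antp/Ubx nuclei. With nuclei weighed equally the ratio was 5.12 for CG3328, 3.53 for Prip, 4.40 for CG14692 and 2.84 for CG8180. The others were CG15203, TwdlL, CG15212, sha, CG17290, the maternal thioredoxin gene dhd and the lipid droplet protein gene Jabba. For dhd, 466 of 548 UMIs in Abd-B nuclei came from the deepest nucleus, which lies in cluster 0, and the ratio of 5.15 became 0.947 with the deepest nuclei left out. For Jabba it was 64 of 80 UMIs, and the ratio of 4.76 became 1.16. Germ cell markers behaved alike. Of 4 measured, vas, pgc and zpg were at least 2-fold higher, beside 5.32% of all genes. The summed ratio of the list of 2.02 (1.69 to 2.42) became 1.02 without the deepest nuclei. Mitosis genes were a similar case, with a summed ratio of 1.49 (1.36 to 1.63) that became 1.05.

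Of the 12 named genes with the lowest folds, 10 kept at least a 2-fold difference under the same 4 ways. The 2 that did not, CG13159 and CG31813, are leading genes of the salivary gland-like cluster, and 1 Antp/Ubx nucleus gave 7179 of 7844 UMIs of CG13159 and 4064 of 4867 of CG31813 in its group. The metallothionein gene MtnA, which binds copper, had 184 CPM in Abd-B and 1114 CPM in Antp/Ubx nuclei, a ratio of 0.166 (0.121 to 0.221), with a median of 1.5 UMIs per Abd-B and 3 per Antp/Ubx nucleus. Of its 1275 UMIs in Antp/Ubx nuclei, 409 came from 1 nucleus, and the ratio was 0.341 with nuclei weighed equally. At clustering resolution 1.5, MtnA was a leading gene of a midgut-like cluster of 26 nuclei, together with the midgut markers mesh and Ssk. Leading genes of the apolpp-rich cluster 5 were also lower. The cytochrome P450 gene Cyp304a1 had 11.5 CPM in Abd-B and 122 CPM in Antp/Ubx nuclei, and fusl had 19.2 CPM in Abd-B and 166 CPM in Antp/Ubx nuclei. The apolipoprotein gene apolpp itself had a ratio of 0.428 (0.383 to 0.477), at 1391 CPM in Abd-B and 3249 CPM in Antp/Ubx nuclei, with UMIs in 22 of 22 Abd-B and 83 of 88 Antp/Ubx nuclei. Cluster 5 held 1 Abd-B and 6 Antp/Ubx nuclei. The uncharacterized genes CG32453 and CG15021 completed the set, with ratios of 0.103 and 0.135. Without the gene's top nucleus the ratio was 0.196 for CG32453 and 0.144 for Cyp304a1.

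**Figure D4:**
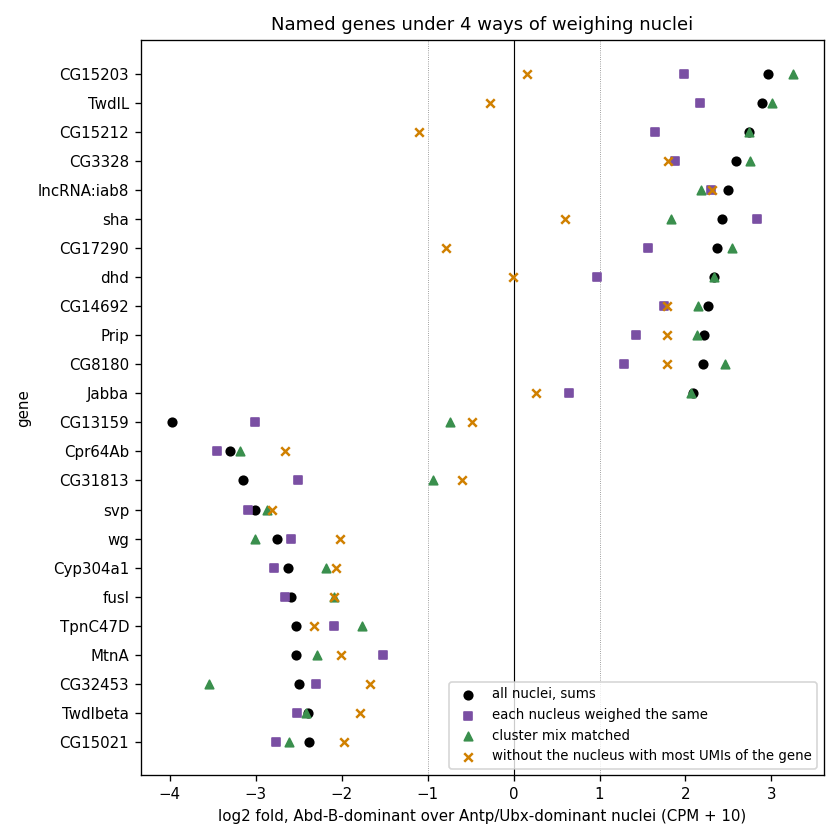
Log2 fold of Abd-B-dominant over Antp/Ubx-dominant nuclei on CPM + 10 (horizontal axis) for the 24 named genes (rows), with sums over all nuclei as circles, nuclei weighed equally as squares, the cluster mix matched as triangles and the gene's top nucleus left out as crosses. Crosses of TwdlL, CG15212 and CG17290 fall below 0, while those of lncRNA:iab8, svp and wg stay beyond 1 log2 unit.

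Splitting the nuclei by a single Hox gene with more than 50% of the Hox UMIs gave 22 Abd-B-dominant, 14 abd-A-dominant, 29 Ubx-dominant and 24 Antp-dominant nuclei. The Abd-B-dominant nuclei are those described above, and the Ubx- and Antp-dominant nuclei are part of the Antp/Ubx-dominant group, so these values are no separate evidence. Antp/Ubx-dominant nuclei in which neither gene alone passed 50% are left out of this split. Ubx- and Antp-dominant nuclei held 28 and 5 of that group's 154 wg UMIs, and 30 and 15 of its 116 svp UMIs. From posterior to anterior, lncRNA:iab8 was at 80.7 CPM (49.9 to 123), 33.2 CPM (6.84 to 97.0), 0 CPM (up to 16.3 CPM for 3 counts) and 9.45 CPM (1.14 to 34.1). The level of the abd-A-dominant nuclei, which neither group holds, lay between those of the Abd-B- and Antp-dominant ones, with an interval that overlapped both. It rests on 3 UMIs and the Antp-dominant level on 2, so no gradient is claimed. For hth the order was 1168, 1416, 2659 and 2155 CPM, with the abd-A-dominant interval (1181 to 1683) overlapping that of the Abd-B-dominant nuclei and below the others. For svp the levels were 3.84, 11.1, 163 and 70.9 CPM, and for wg 11.5, 11.1, 152 and 23.6 CPM. The abd-A-dominant values of both are 1 UMI each. Among the sets shown, Ubx-dominant nuclei had the highest summed level of both. In Ubx-dominant nuclei, 14 of the 28 wg UMIs and 20 of the 30 svp UMIs came from 1 nucleus each. Without it wg was at 77.2 CPM and svp at 62.9 CPM, so svp was then below the 70.9 CPM of Antp-dominant nuclei. Kr was highest in Ubx-dominant nuclei too, at 34.6, 55.3, 228 and 47.3 CPM, from 12 of the 29. Scr was at 7.68, 33.2, 32.6 and 52.0 CPM, from 2, 3, 6 and 11 UMIs. TpnC47D was at 131, 807, 695 and 1143 CPM. For TpnC47D, 164 of the 242 UMIs of Antp-dominant nuclei and 42 of the 73 of abd-A-dominant nuclei came from 1 nucleus each, and without it the levels were 427 and 378 CPM. In Ubx-dominant nuclei, 4 of the 6 Scr UMIs came from 1 nucleus.

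**Figure D5:**
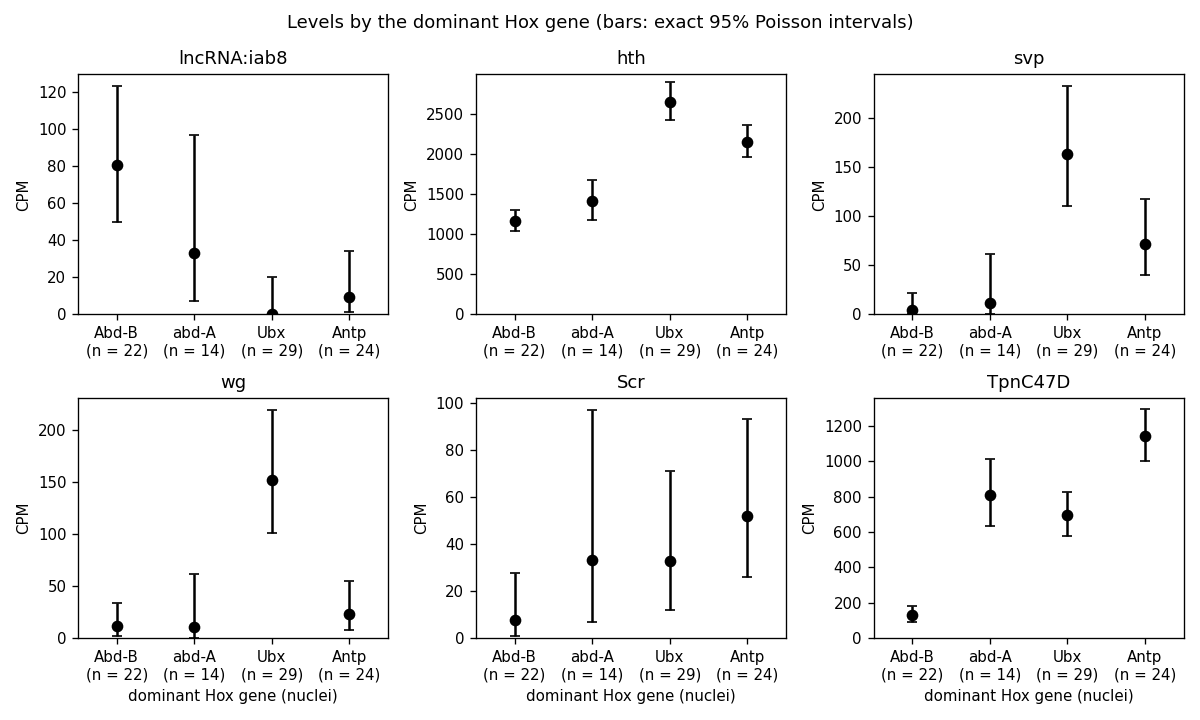
Levels in CPM (vertical axes, each from 0) of lncRNA:iab8, hth, svp, wg, Scr and TpnC47D in nuclei with more than 50% of Hox UMIs in Abd-B, abd-A, Ubx or Antp (horizontal axis, posterior to anterior), with exact 95% Poisson intervals as bars. The level of hth was 1168 CPM in the 22 Abd-B-dominant, 1416 CPM in the 14 abd-A-dominant, 2659 CPM in the 29 Ubx-dominant and 2155 CPM in the 24 Antp-dominant nuclei.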

How the data were processed

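Per the labels, the deposited table gives UMI counts for 17039 genes in 318 nuclei from 1 library on the 10x Genomics platform. The values are integers with no normalization by the authors. The build dm3 comes from the submitters' processing notes, while aligner, counter, strand use and barcode filters are not stated in them. All 318 nuclei were kept.

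The members and gene lists were chosen with earlier results of these data known. Counts were summed per group and given as CPM. Folds for ranking and calls used CPM + 10, and printed ratios are of CPM without that addition. Named genes were the 12 highest and 12 lowest folds among genes of at least 20 UMIs that 25% or more of the nuclei of the higher group held, if the direction held with nuclei weighed equally, plus the list members described. Intervals at 95% are exact: binomial (Clopper-Pearson), Poisson, and conditional binomial for ratios. A count of 0 was read as up to 3 counts. The alternatives tried concern Hox minimum and dominance, depth, weights, doublets, pseudocount, gene filter and cluster mix.

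Clustering in python 3.11.15 used scanpy 1.11.5 with igraph 0.11.9, numpy 2.4.6, pandas 2.3.3 and scipy 1.17.1: 10000 UMIs per nucleus, log, 2000 variable genes, 20 components, 10 neighbours, Leiden resolution 1.0, seed 0. The 4 Hox genes and 323 list genes were left out. Cell type markers, among them svp and TpnC47D, were not left out. Their values with the cluster mix matched may therefore not be independent of the clustering. A cluster took the name of 1 of 20 marker lists with at least 3 markers over 2-fold higher. The conditions that left cluster 2 and the apolpp-rich cluster 5 unnamed were set after the values were seen. Scrublet scores were used for doublets, which were kept. Of the list entries, 439 matched by exact symbol, 6 through an older symbol and 1 was not found. The steps were tested on simulated counts. No class had 10 nuclei of each group, so the lists were not compared within 1 class as planned, and values of single genes by cluster are a description.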

Additional observations from a re-analysis of the deposited data

How the results depend on the processing

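The count of genes at least 2-fold higher in Abd-B-dominant nuclei was 376 and the count at least 2-fold lower 445. With dominance over 2/3 of Hox UMIs, 213 were higher and 467 lower of 5457 genes tested, against 7062 before. With nuclei weighed equally, 708 were lower. A pseudocount of 1 CPM gave 617 higher and 699 lower, and one of 50 CPM gave 104 higher and 72 lower. At least 50 UMIs per gene left 184 higher and 243 lower. Nuclei thinned to 1000 UMIs gave 48 higher and 106 lower of only 955 genes tested, and thinned to 3000 UMIs, added after seeing the data, 135 higher and 217 lower of 2403. At clustering resolution 1.0 the epidermis-like share was 9.09% of Abd-B-dominant and 2.27% of Antp/Ubx-dominant nuclei. At 0.5 it was 45.5% of Abd-B-dominant and 45.5% of Antp/Ubx-dominant nuclei. At 1.5 it was 13.6% of Abd-B-dominant and 12.5% of Antp/Ubx-dominant nuclei. This share and its difference between the groups thus depend on the resolution. Log2 folds reversed for TwdlL (-0.28), CG15212 (-1.10), CG17290 (-0.79) and dhd (-0.0028) without the gene's top nucleus, for dhd (-0.076) without the deepest nuclei, for RhoGEF64C (-0.056) thinned to 3000 UMIs and for the germ cell list (-0.18) with dominance over 2/3. The cause was not tested. Of 54 named genes, 31 were past 2-fold, of which 26 kept their direction and 12 stayed past 2-fold in all 14 settings. Across all settings the log2 fold of lncRNA:iab8 lay between 1.22 and 3.52, that of svp between -4.40 and -1.49, and that of hth between -1.23 and -0.40. No paired analysis was possible because there is 1 library and no replicate number.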

Other observations

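Markers of further cell types were compared between the groups in the same sums. Fat body markers had a summed ratio of 0.428 (0.385 to 0.475), with 3 of 5 measured members at least 2-fold lower in Abd-B-dominant nuclei and none higher, beside 6.3% and 5.32% of all genes. The sums were 1499 CPM in Abd-B-dominant and 3499 CPM in Antp/Ubx-dominant nuclei, most of it apolpp in both. The ratio thus largely repeats that of apolpp given above, and the apolpp-rich cluster was not named fat body. Salivary gland markers had the lowest ratio of the marker lists, 0.335 (0.254 to 0.434), with 4 of 5 at least 2-fold lower, and 0.582 with the cluster mix matched; the 1 salivary gland-like nucleus was Antp/Ubx-dominant. Midgut markers had a ratio of 0.391 (0.294 to 0.511), with mesh and Ssk, both of septate junctions, at least 2-fold lower, but 0.941 with nuclei thinned to 1000 UMIs. At clustering resolution 1.5, mesh, Ssk and MtnA were leading genes of the same midgut-like cluster, so their lower values are not separate observations. Hemocyte markers had a ratio of 1.21 and tracheal markers one of 1.16, with none past 2-fold. Neural precursor markers had a ratio of 0.734 (0.634 to 0.847), with 2 of 10 at least 2-fold lower and none higher.

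The 16 genes that stayed at least 2-fold higher in Abd-B-dominant nuclei included the adhesion gene DIP-kappa (76.8 CPM in Abd-B-dominant and 22.7 CPM in Antp/Ubx-dominant nuclei), the serine protease gene ea (42.3 CPM in Abd-B-dominant and 9.61 CPM in Antp/Ubx-dominant nuclei), the kinesin light chain gene Klc (104 CPM in Abd-B-dominant and 41.9 CPM in Antp/Ubx-dominant nuclei) and the kinase gene Mekk1 (73.0 CPM in Abd-B-dominant and 31.4 CPM in Antp/Ubx-dominant nuclei). At the other end, 3 of the 85 lower genes were at 0 UMIs in Abd-B-dominant nuclei, where 0 UMIs allow up to 11.5 CPM. The gene cmpy, which acts at motor neuron synapses, had 48 UMIs in 25 of 88 Antp/Ubx-dominant nuclei, bigmax had 40 UMIs and CG42815 had 38.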
